A study of Mus musculus with 12 samples.

Results

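Prdm1, Prdm14, Tfap2c, Cbfa2t2 and Sall4 encode transcription factors, or a partner of one, of the primordial germ cell (PGC) founder state. They were followed by gene name through a table of 26218 gene rows, where each has 1 row, so the members are 5 genes. All 5 were among the 10856 genes tested, a gene being tested where it reached 5 RPM (a read number scaled to library size) in at least 2 of the 12 libraries. RNA was read by 3′-end sequencing of amplified cDNA in 6 groups of 2 libraries. PGC-like cells (PGCLCs) were derived in culture from C57BL/6 embryonic stem cells with the reporters Blimp1-mVenus and Stella-ECFP (BVSC), through an epiblast-like intermediate and a cytokine induction with BMP4. They were sorted by Blimp1-mVenus at induction day 4, expanded on m220 feeder cells, and sorted as BVSC+ at culture day 3 (d4c3), day 5 (d4c5) or day 7 (d4c7), with 10 ng of RNA per library. The embryonic groups were PGCs at E9.5 and male and female germ cells at E12.5, from ICR:C57BL/6=1:1 embryos with a Stella-EGFP reporter (SG), sorted as SG+, with 1 ng of RNA per library. Strain, reporter, sort and RNA input therefore differ together between culture and embryo and cannot be told apart from it. Blimp1 is the protein of Prdm1, so the cultured cells, and not the embryonic ones, were sorted on a reporter of one of the genes described here.

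In the mouse, PGCs arise from the epiblast in response to BMP signals, and a small set of nuclear factors then represses the somatic programme and restores pluripotency-associated genes. Prdm1 is a zinc-finger repressor, Prdm14 a zinc-finger factor that works with the co-repressor Cbfa2t2, and Tfap2c an AP-2 factor that acts with them. Sall4 is a zinc-finger factor shared by pluripotent and germ cells.

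The sequence windows below were taken from RefSeq promoters (GRCm38.p6), which held an entry for only 2 of the 5 genes, and both are shown. In what follows Prdm1 has a difference between culture and embryo and Cbfa2t2 has none detected. A link between these windows and the levels was not tested. Each runs from 250 bases before to 50 bases after the annotated start, 5′ to 3′ on the gene's strand. No letters are capitalised, since the motif searched for was in neither.
Prdm1, chr10:44458699-44458998, minus strand: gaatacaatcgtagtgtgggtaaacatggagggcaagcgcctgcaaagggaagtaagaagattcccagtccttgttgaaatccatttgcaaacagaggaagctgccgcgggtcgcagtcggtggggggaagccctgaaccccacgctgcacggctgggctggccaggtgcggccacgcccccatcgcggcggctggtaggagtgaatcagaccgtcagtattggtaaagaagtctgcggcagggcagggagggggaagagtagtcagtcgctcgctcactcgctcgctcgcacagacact
Cbfa2t2, chr2:154436234-154436533, plus strand: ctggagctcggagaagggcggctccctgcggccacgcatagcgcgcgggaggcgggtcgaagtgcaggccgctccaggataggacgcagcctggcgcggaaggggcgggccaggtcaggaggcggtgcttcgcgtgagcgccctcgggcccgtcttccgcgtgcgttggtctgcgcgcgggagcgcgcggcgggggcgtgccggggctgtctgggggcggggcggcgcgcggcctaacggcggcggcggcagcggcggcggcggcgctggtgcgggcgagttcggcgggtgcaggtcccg
The Cbfa2t2 window is 79.0% G and C with 51 CG pairs, more than 99.3% of 32851 promoter windows of the same length. The Prdm1 window is 59.7% G and C with 20 CG pairs, more than 73.5% of the windows, whose median is 7.00. This Prdm1 start lies inside the gene. The palindromic AP-2 type motif GCCNNNGGC, which reads the same on both strands, was found 0 times in both windows and at least once in 16.6% of all windows. That says only that these letters are not in these 300 bases.

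Of the 5 genes, 3 lie on chromosome 2: Cbfa2t2 (NCBI Gene 12396, 154436098 to 154539356), Sall4 (99377, 168748332 to 168767201) and Tfap2c (21420, 172545678 to 172558622). Prdm1 (12142) spans 44437174 to 44528558 on chromosome 10 and Prdm14 (383491) spans 13113428 to 13127163 on chromosome 1, all in GRCm38.p6. Libraries were estimated to hold 2213555 to 5801877 reads in genes, with the second d4c7 library the deepest. The 60 values of the 5 genes rest on about 181 to 1871 reads each, which gives a counting error of 2.31% to 7.43% of the value, and covers counting error only. Nothing in the labels says whether the 2 libraries of a group came from separate cultures or litters, so the p-values measure the spread between these libraries, which may be technical. As a description of the sorted cells, all 7 germ cell markers were at 5 RPM or more on average in each group, which is no measure of purity. They include Dppa3, the gene of Stella, whose reporters were used in both sorts, so its presence is no independent check. Blood and endothelial markers summed to 3866 and 4346 RPM in the E9.5 libraries, with 5 of the 11 at 5 RPM or more, against 59.3 to 169 RPM in the other 10 libraries. Stromal markers summed to 167 to 171 RPM at E9.5, with 6 of 10 at 5 RPM or more, to 12.3 to 95.9 RPM in culture and to 1.52 to 5.63 RPM at E12.5. Hindgut and endoderm markers summed to 38.6 to 47.9 RPM at E9.5 and 0.887 to 13.4 RPM elsewhere, and gonadal somatic markers to 14.4 to 22.8 RPM at E9.5, 8.43 to 15.6 RPM in E12.5 males, 4.55 to 5.78 RPM in E12.5 females and 1.55 to 4.71 RPM in culture. Hbb-y, an embryonic globin, was at 0 in all 6 culture libraries. Of the Sertoli cell genes, Amh was at 0 in every embryonic library, and Sox9 was at 1.25 and 1.81 RPM in males and 0 in both female libraries. The part of these transcripts in the differences from E9.5 or between the sexes was not tested, and the comparison that pools the embryo was repeated without E9.5. In sorted bulk RNA, fewer cells of a type and less RNA of a gene per cell cannot be told apart.

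Prdm1, the repressor that starts the germ line programme, was high in culture and low in the embryo. In d4c3 its libraries were at 106 and 113 RPM, in d4c5 at 109 and 105 RPM, and in d4c7 at 88.3 and 120.1 RPM. At E9.5 they were at 68.6 and 65.1 RPM, in E12.5 males at 64.4 and 62.6 RPM, and in E12.5 females at 61.6 and 71.7 RPM. The culture libraries (88.3 to 120.1 RPM) did not overlap the embryonic ones (61.6 to 71.7 RPM). The order of the group means was d4c3, d4c5, d4c7, E9.5, female and male, and only the step from d4c7 (104 ± 22.5 RPM, SD, n = 2) to E9.5 (66.8 ± 2.48 RPM, SD, n = 2) separated neighbours whose libraries did not overlap. The lowest and the highest culture value both belong to d4c7, and the higher one is the deepest library, the only one without spike-in values.

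Prdm14, which in PGCs is known for repressing DNA methyltransferase and FGF receptor genes, was lowest at E12.5, with E9.5 between E12.5 and culture. Its libraries were at 101 and 122 RPM in d4c3, 90.4 and 109.8 RPM in d4c5, and 91.5 and 106 RPM in d4c7. They were at 80.1 and 82.1 RPM at E9.5, 56.6 and 61.2 RPM in males, and 60.6 and 51.3 RPM in females. The 3 culture groups overlapped each other, E9.5 lay below all of them and above E12.5, and the sexes overlapped. The highest group mean, 111 ± 14.9 RPM in d4c3, was 1.98 times the lowest, 56.0 ± 6.60 RPM in females (SD, n = 2 each).

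Tfap2c, the AP-2 factor downstream of Prdm1, had the widest range of the 5 and was the one called between the sexes. It was at 185 and 170.3 RPM in d4c3, 159 and 214 RPM in d4c5, and 159 and 179 RPM in d4c7. It was at 217 and 225 RPM at E9.5, 56.9 and 72.6 RPM in males, and 129 and 152 RPM in females. E9.5 lay above every culture library, females below every culture library, and males below females, with no overlap at any of these 3 steps. From E9.5 (221 ± 5.65 RPM) to males (64.7 ± 11.1 RPM, SD, n = 2 each) the mean differed 3.42-fold.

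Cbfa2t2, a co-repressor of the MTG family that binds Prdm14, was nearly flat. It was at 98.6 and 83.8 RPM in d4c3, 90.0 and 101 RPM in d4c5, and 85.2 and 103 RPM in d4c7. It was at 90.4 and 80.7 RPM at E9.5, 97.8 and 95.7 RPM in males, and 98.6 and 99.6 RPM in females. The group means ran only from 85.6 ± 6.91 RPM at E9.5 to 99.1 ± 0.696 RPM in females (SD, n = 2 each), which is less than the gap between the 2 libraries of d4c3 or of d4c7.

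Sall4, a zinc-finger factor of pluripotent and germ cells, was also steady except in females. It was at 335 and 300.3 RPM in d4c3, 322 and 323 RPM in d4c5, and 316 and 322 RPM in d4c7. It was at 307 and 292 RPM at E9.5, 274 and 312 RPM in males, and 345 and 397 RPM in females. Females (371 ± 37.0 RPM, SD, n = 2) lay above the other 10 libraries, and the other groups followed in an order (d4c5, d4c7, d4c3, E9.5, male) in which neighbours overlapped.

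**Figure D1:**
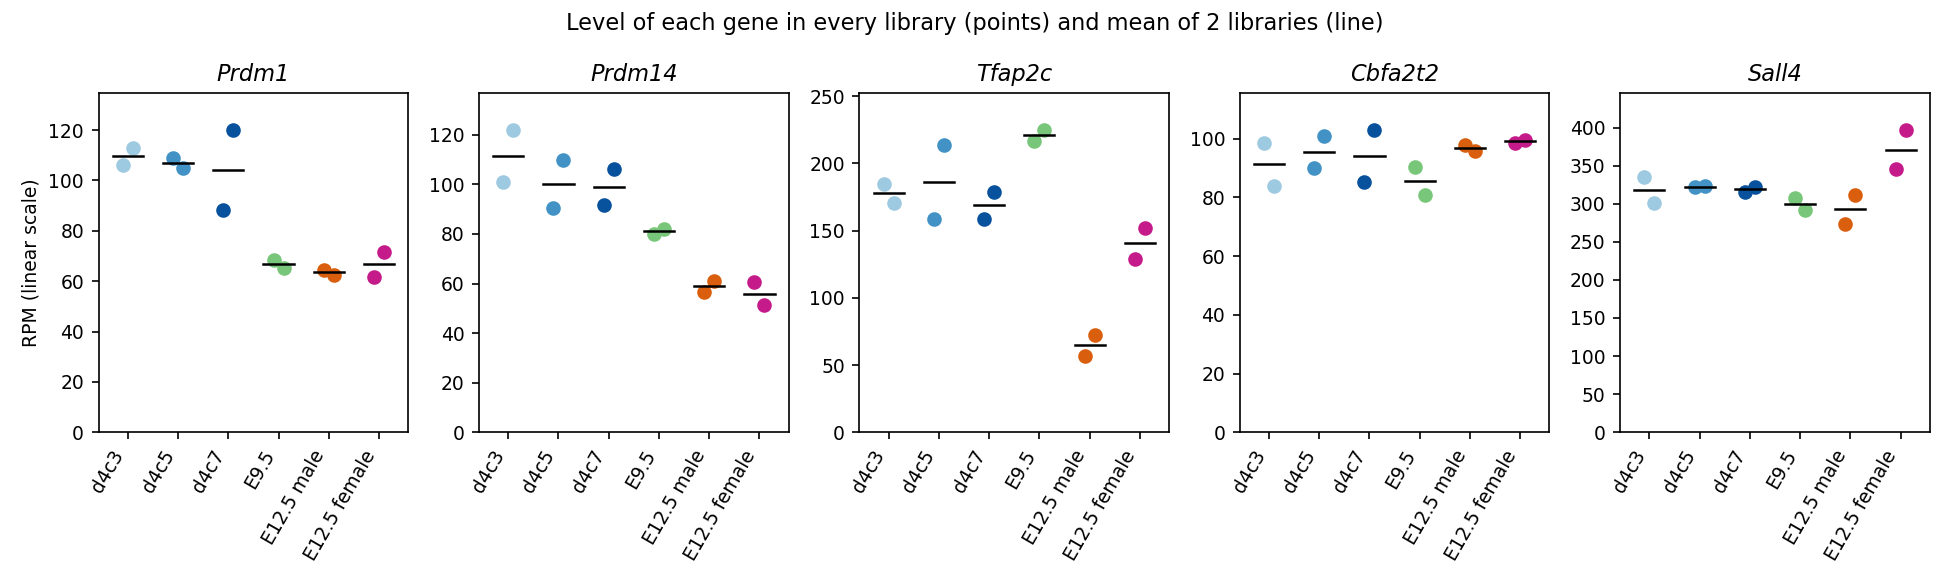
RPM of the 5 genes in each of the 12 libraries by group, with points for libraries and lines for group means. Prdm1 and Prdm14 in culture (at least 88.3 and 90.4 RPM) lie above every embryonic library, Tfap2c is lowest in E12.5 males (56.9 and 72.6 RPM), and Cbfa2t2 stays between 80.7 and 103 RPM.

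On the log2(RPM + 1) scale, the range between the highest and lowest group mean was 0.21 for Cbfa2t2 and 0.34 for Sall4. Only 0.958% and 4.75% of the tested genes had smaller ranges, and the median gene had 0.98. Prdm1 (0.78, above 35.7% of genes) and Prdm14 (0.97, above 49.7%) were near or below the middle, and Tfap2c (1.77, above 81.0%) was in the upper part. The range over the embryonic groups alone was 0.07 for Prdm1 and 0.53 for Prdm14. Over the culture groups alone it was 0.09 for Prdm1 and 0.16 for Prdm14. Prdm1 thus had narrow ranges within culture and within the embryo, and Prdm14 a narrow range only within culture.

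No member was called between culture days. limma with Benjamini-Hochberg adjustment over all tested genes called 0 of 5 from d4c3 to d4c7, where 2.75% of all genes were called, 0 of 5 from d4c3 to d4c5 (0.0829%), and 0 of 5 from d4c5 to d4c7 (0.0184%). None of the 15 tests had an unadjusted p under 0.05, and the lowest was 0.302. From d4c3 to d4c7 Prdm14 moved by -0.16 ± 0.15 (log2, SE), with a 95% interval of -0.49 to 0.16. Over the same days Prdm1 moved by -0.09 (interval -0.41 to 0.24), Tfap2c by -0.07 (-0.41 to 0.26), Cbfa2t2 by 0.04 (-0.26 to 0.34) and Sall4 by 0.01 (-0.22 to 0.24). Of 16 genes known from the PGC programme, 1 was called in that contrast. Dnd1, an RNA-binding survival factor of germ cells, fell by 1.30 ± 0.14 (adjusted p = 0.00033 by limma), from 150.2 and 128 RPM to 49.1 and 62.9 RPM.

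Prdm1, Prdm14 and Tfap2c were higher in culture than in the embryo. Over the 3 culture groups against the 3 embryonic groups, limma called 3 of 5 members, all higher in culture, against 54.5% of all tested genes called, 27.7% higher and 26.8% lower. Prdm1 was higher by 0.69 ± 0.09 (log2, SE; adjusted p = 1.83e-05) and Prdm14 by 0.67 ± 0.09 (adjusted p = 2.77e-05), both 6 of 6 culture libraries above 6 of 6 embryonic ones. The share of all tested genes whose libraries separate in this way is not given, here or for other comparisons. Lack of overlap is therefore a description only. Tfap2c was higher by 0.49 ± 0.09 (adjusted p = 0.000435), but the embryonic mean pools E9.5, above culture, with E12.5, below it. Cbfa2t2 differed by -0.01 (95% interval -0.18 to 0.17; -0.07 without the E9.5 group) and Sall4 by 0.00 (-0.13 to 0.13; -0.04 without it). The median of the 5 was 0.49, beside -0.01 over all tested genes. Without the E9.5 group the differences were 0.70 for Prdm1, 0.83 for Prdm14 and 0.89 for Tfap2c (adjusted p = 3.69e-05, 9.59e-06 and 6.14e-06 by limma), a setting chosen after seeing the data.

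Taken against each embryonic group in turn, Prdm1 was the member that differed from culture each time. Against E9.5, d4c3 had Prdm1 higher by 0.71 ± 0.15 (adjusted p = 0.00386) and Prdm14 by 0.44 ± 0.15 (adjusted p = 0.0498), 2 of 5 members called and both higher, where 23.7% of genes were called and 13.4% were higher. The Prdm14 call lies at the threshold, and leaving out any 1 of the 4 libraries raised its adjusted p to between 0.0550 and 0.291. For d4c7 against E9.5, 1 of 5 was called (31.9% of genes; 18.1% higher), which was Prdm1 at 0.62 ± 0.15 (adjusted p = 0.00638). Without the second d4c7 library its adjusted p was 0.0535 and without the second E9.5 library 0.0579. Prdm14 was at 0.28 ± 0.15 there (95% interval -0.05 to 0.61, adjusted p = 0.184 by limma) and was not called. Tfap2c was at -0.39 ± 0.16 (adjusted p = 0.0724), with both d4c7 libraries below both E9.5 libraries, and its call changes with the second d4c7 library left out (adjusted p = 0.0460 by limma).

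Against E12.5 males, d4c7 had 3 of 5 members called, all higher (36.6% of genes called; 19.0% higher): Tfap2c by 1.38 ± 0.16 (adjusted p = 1.96e-05), Prdm14 by 0.73 ± 0.15 (adjusted p = 0.00218) and Prdm1 by 0.69 ± 0.15 (adjusted p = 0.00301). Against E12.5 females, 2 of 5 were called, both higher (38.9% of genes called; 19.8% higher): Prdm14 by 0.81 ± 0.15 (adjusted p = 0.00104) and Prdm1 by 0.62 ± 0.15 (adjusted p = 0.00523). Prdm1's adjusted p against females was 0.0597 without the first female library. Tfap2c was 0.27 ± 0.16 above females, with an adjusted p of 0.187 by limma and a 95% interval of -0.06 to 0.60. Cbfa2t2 was called in no contrast. The d4c7 libraries are shared by these comparisons.

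Within the embryo, Tfap2c and Prdm14 were lower in both sexes at E12.5 than at E9.5, where the libraries are not split by sex. In males 2 of 5 members were called, both lower, beside 37.7% of genes called and 17.6% lower. Tfap2c fell by 1.77 ± 0.16 (adjusted p = 1.89e-06 by limma) and Prdm14 fell by 0.46 ± 0.15 (adjusted p = 0.0301). In females 3 of 5 were called, 2 lower and 1 higher, beside 37.5% of genes called, 17.1% lower and 20.4% higher. Tfap2c fell by 0.66 ± 0.16 (adjusted p = 0.00474) and Prdm14 by 0.53 ± 0.15 (adjusted p = 0.0143), and Sall4 rose by 0.31 ± 0.11 (adjusted p = 0.0366). Leaving out any library of either comparison set Prdm14's adjusted p to between 0.0732 and 0.148 in males, while in females leaving out the first or second E9.5 library or the second female library gave 0.0674, 0.0851 and 0.124. The Tfap2c call in females was lost without the first female library (adjusted p = 0.0582). The Sall4 call was lost without either E9.5 library (adjusted p = 0.102 and 0.194 by limma) and without the second female library (0.273).

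Between the sexes 1 of 5 members was called, where 11.9% of genes were called and 6.68% were higher in females. Tfap2c was higher in females by 1.11 ± 0.16 (adjusted p = 0.000460 by limma), a 2.17-fold difference of means, with both female libraries (129 and 152 RPM) above both male ones (56.9 and 72.6 RPM). The gonadal somatic markers, which summed to 8.43 to 15.6 RPM in males and 4.55 to 5.78 RPM in females, moved with sex too, and their part in this difference was not tested. Since both changes are measured from the same E9.5 libraries, this is also the difference between the 2 falls. Sall4 was 0.34 ± 0.11 higher in females and missed the threshold (adjusted p = 0.0537). Prdm1 (0.07), Prdm14 (-0.08) and Cbfa2t2 (0.03) differed by less, with intervals of -0.26 to 0.39, -0.40 to 0.25 and -0.26 to 0.33.

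**Figure D2:**
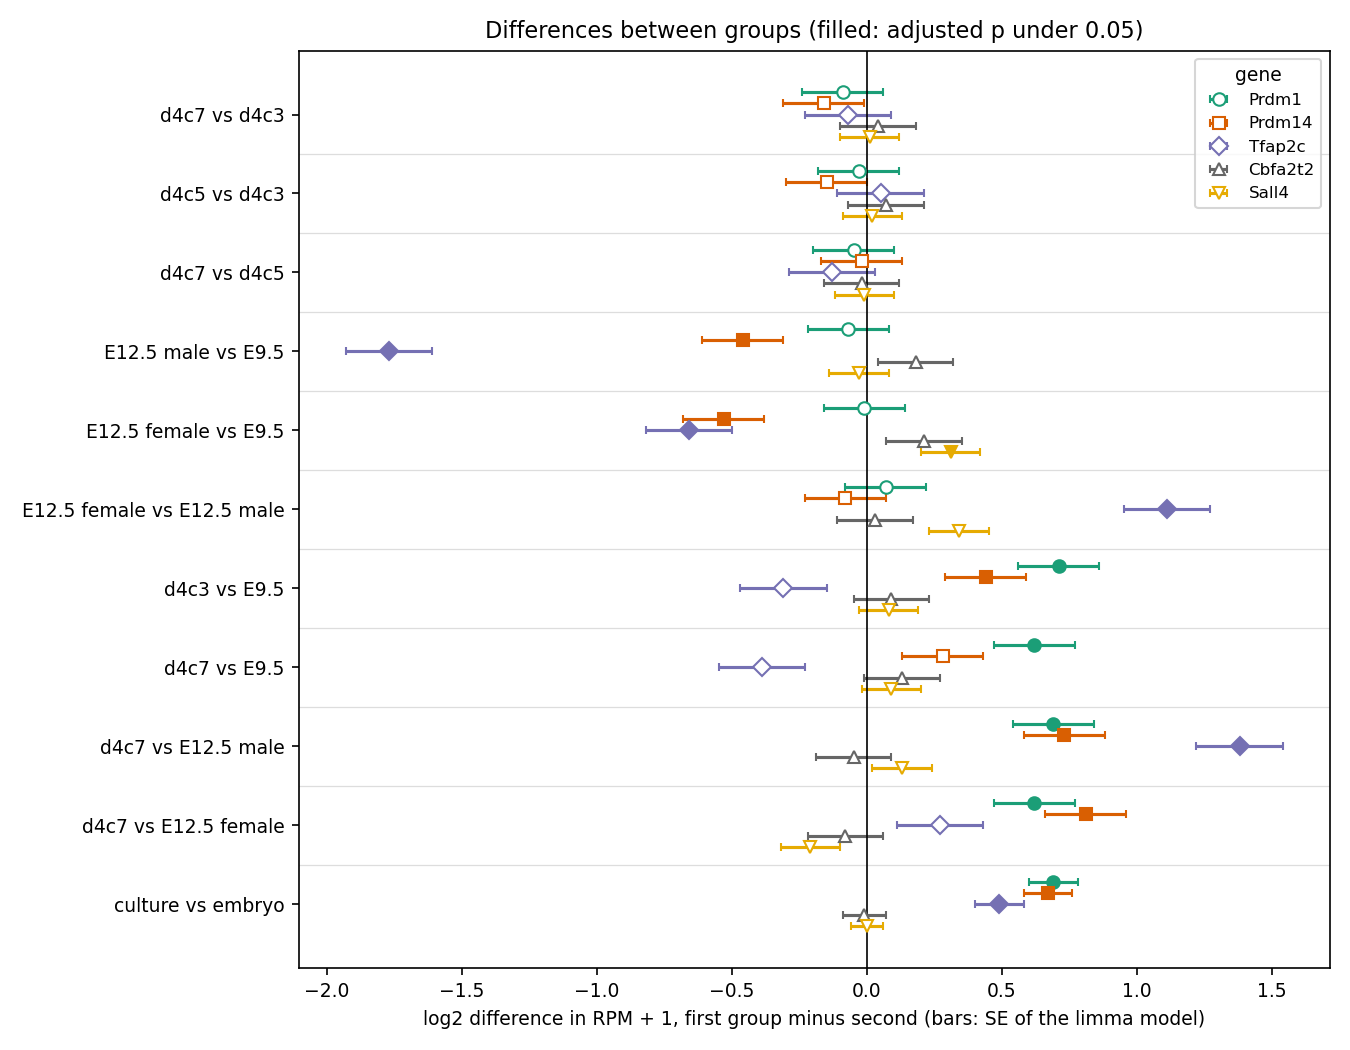
Difference in log2(RPM + 1) of each gene in each contrast, first group minus second, with symbols for estimates, filled where the adjusted p was under 0.05, and bars for the SE of the model. The Tfap2c symbols range from -1.77 (E12.5 males against E9.5) to 1.38 (d4c7 against E12.5 males), and no symbol is filled in the 3 contrasts between culture days.

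Genes whose profile over the 12 libraries was most like each member, by Pearson r of log2(RPM + 1), are named as a description. The libraries share group structure and each r follows mainly the group means. Prdm1 was closest to Cd59a (r = 0.965), Rhebl1 (0.964) and Tead1 (0.951). Cd59a had group means of 71.8 to 83.3 RPM in culture and 7.96 to 10.8 RPM in the embryo. Prdm14 was closest to Eif3l (r = 0.979), Ptma (0.971) and Psma5 (0.958), and Tfap2c to Ror2 (0.963), Hnrnpa2b1 (0.945) and Dnttip1 (0.944). For the flat genes the nearest were lower, Rnf115 (0.871), Ppp1cb (0.858) and Hps3 (0.848) for Cbfa2t2 and Rpain (0.862), Plp2 (0.859) and Bcap31 (0.855) for Sall4. Counts were taken over tested genes with a mean of at least 20 RPM, leaving out predicted genes and the members. Of these, 67 reached 0.9 with Prdm1, 101 with Prdm14, 23 with Tfap2c and 0 with Cbfa2t2 and with Sall4. Among the members, Prdm1 and Prdm14 had r = 0.85 over 12 libraries, but 0.53 within the 6 culture libraries and -0.08 within the 6 embryonic ones. Prdm14 and Tfap2c had r = 0.64 over all, 0.50 in culture and 0.64 in the embryo.

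Several relatives of the members were close to undetected. None of the 4 Tfap2 paralogs reached the level tested, Tfap2a being the highest at 1.84 RPM in 1 E9.5 library, and Tfap2d was at 0 in all 12. Cbfa2t3 stayed at or below 1.90 RPM, and the other MTG gene, Runx1t1, was lower in culture by 1.13 ± 0.17 (adjusted p = 9.34e-05 by limma). Runx1t1 was at 8.22 to 17.6 RPM in culture, 14.4 and 11.8 RPM at E9.5, 31.8 and 24.4 RPM in males and 54.4 and 49.9 RPM in females, so it was highest in females. From E9.5 it rose by 1.92 ± 0.30 in females (adjusted p = 0.000252) and by 1.04 ± 0.30 in males (adjusted p = 0.0141), the latter call being lost without the first male library (adjusted p = 0.113 by limma). Of the 13 other PRDM genes, 5 were tested and 1 was called lower in culture, Prdm4 (-0.82 ± 0.22, adjusted p = 0.00554). Prdm2, a histone methyltransferase, rose from 29.7 and 34.2 RPM in d4c3 to 54.6 and 51.9 RPM in d4c7 (0.72 ± 0.16, adjusted p = 0.0297), a call lost without the first d4c3 library (adjusted p = 0.234). All 3 SALL paralogs were called lower in culture, Sall3 at -2.20, Sall2 at -1.72 and Sall1 at -0.63 (adjusted p = 1.98e-05, 0.000229 and 0.0239 by limma). Sall2 and Sall3 were below 5 RPM in every culture library. They were tested only through embryonic libraries, so the filter itself favours a lower call for them. The Sall1 call is lost without the E9.5 group (adjusted p = 0.489) and in 6 of the fits that leave out 1 library, and without the first E9.5 library only 1 of the 3 was called. Without the E9.5 group Sall2 was at -0.98 (adjusted p = 0.0199 by limma) and Sall3 at -2.31 (adjusted p = 3.18e-05). Sall2 was at 14.7 and 12.0 RPM at E9.5 and 0.390 to 1.36 RPM in culture, and Sall1 at 24.3 and 23.4 RPM at E9.5 and 4.48 to 10.6 RPM in culture, beside the somatic transcripts found at E9.5, whose part was not tested.

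**Figure D3:**
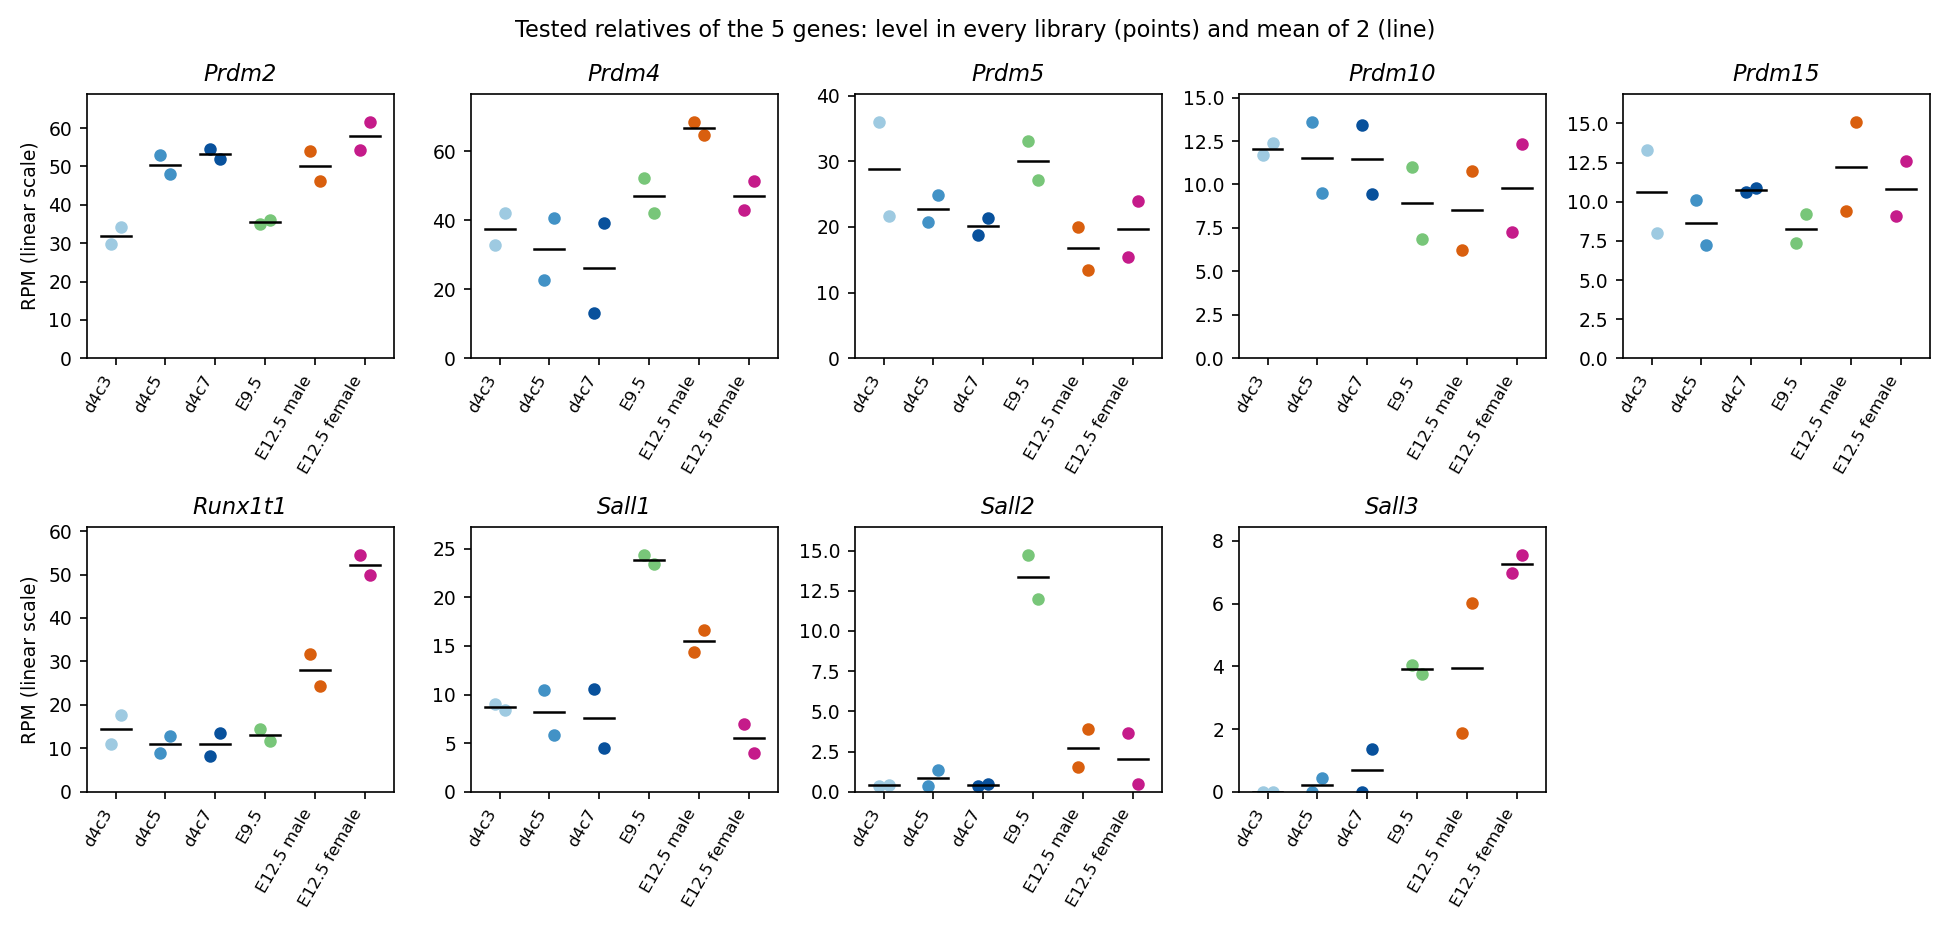
RPM of the 9 tested paralogs in each of the 12 libraries by group, with points for libraries and lines for group means. Runx1t1 is highest in E12.5 females (54.4 and 49.9 RPM), and Sall1 (24.3 and 23.4 RPM) and Sall2 (14.7 and 12.0 RPM) are highest at E9.5.

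Components of chromatin complexes that Prdm14, Prdm1 and Sall4 are known to work with were read from lists of named genes. The shares over all tested genes to read their counts against are 27.7% higher and 26.8% lower for culture against embryo. Of 75 tested genes in these and the other lists below and the paralog families, 54 were called in that comparison, 52 of them in the same direction without the E9.5 group. Hoxb2 and Sall1 were lost, and 5 others were gained. Of 7 tested PRC2 genes, which write a repressive histone mark and are tied to Prdm14, 6 were higher and 1 lower in culture than in the embryo, with a median of 0.60 beside -0.01 over all tested genes, and leaving out any 1 library, or the E9.5 group, gave 6 higher again. Eed was higher by 0.88 ± 0.08 (adjusted p = 1.64e-06), Suz12 by 0.83 ± 0.14 (adjusted p = 0.000213) and Rbbp4 by 0.63 ± 0.10 (adjusted p = 0.000127), all by limma. Eed libraries were at 156 to 215 RPM in culture and 87.6 to 122 RPM in the embryo, without overlap. Rbbp7 was the lower one (-0.21 ± 0.07, adjusted p = 0.0246), a call lost in 9 of 20 alternatives. In d4c7, 6 of the 7 were higher and 0 lower than in E12.5 males (19.0% of all genes higher), 4 higher and 1 lower than in females (19.8%), and 3 higher and 0 lower than at E9.5 (18.1%). These counts moved with single libraries: 3 higher than in males without the first d4c7 or the second male library, and, against E9.5, 5 without the second d4c7 and 1 without the second E9.5 library.

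The NCoR co-repressor genes that MTG proteins recruit had 1 of 6 higher and 2 lower, and 1 to 2 higher and 1 to 2 lower when a library was left out, with Ncor1 at 0.56 ± 0.09 (adjusted p = 0.000145) and Gps2 at -0.98 ± 0.20 (adjusted p = 0.000902). Of 10 tested genes of NuRD, the deacetylase complex bound by Sall4, which shares Rbbp4 and Rbbp7 with the PRC2 list, 3 were higher and 4 lower, and 5 and 4 without the E9.5 group. The lower count was 2 without the first E9.5 library and without the second female library. Hdac1, a deacetylase, was at 0.61 ± 0.05 (adjusted p = 7.07e-07) and Chd4, the ATPase of the complex, at -0.59 ± 0.10 (adjusted p = 0.000264). Prmt5, the arginine methyltransferase that binds Prdm1, differed by -0.72 ± 0.09 (adjusted p = 2.01e-05), with 44.4 to 70.5 RPM in culture, 71.0 and 66.0 RPM at E9.5 and 131 and 123 RPM in males. The other 3 methylosome genes were higher in culture than in the pooled embryo, Riok1 by 0.58 ± 0.17 (adjusted p = 0.0113), Wdr77 by 0.36 ± 0.08 (adjusted p = 0.00163) and Clns1a by 0.18 ± 0.07 (adjusted p = 0.0389), by limma. The Clns1a call was lost in 13 of 20 alternatives. The Riok1 mean was 33.8 RPM at E9.5, against 31.3, 33.0 and 29.7 RPM in d4c3, d4c5 and d4c7. Clns1a was at 237 RPM at E9.5, against 239.8, 214 and 191 RPM, and Wdr77 at 193 RPM, against 234, 226 and 236 RPM. Against E9.5, 0 of the 4 methylosome genes were called in d4c3 and 0 in d4c7.

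Among 9 genes known to be repressed with Prdm14, 5 were higher and 3 lower in culture, with a median of 0.46. Dnmt3l, a cofactor of de novo methylation, was listed at 0 in all 6 embryonic libraries and was at 1.96 and 14.2 RPM in d4c3, 65.1 and 31.2 RPM in d4c5, and 178 and 41.0 RPM in d4c7. Dnmt3l is among the 5 higher genes. It was tested only through culture libraries, so the filter itself favours a higher call for it. Fgfr2 was higher by 1.78 ± 0.14 (adjusted p = 2.12e-07) and Uhrf1, a maintenance methylation factor, was at -1.29 ± 0.19 (adjusted p = 7.54e-05). The counts were 5 and 3 again without the E9.5 group. From d4c3 to d4c7 Dnmt3l and Otx2, an epiblast and neural homeobox gene, rose (3.69 ± 0.69 and 1.93 ± 0.41; adjusted p = 0.0129 and 0.0245 by limma). Both calls were lost without the first d4c3 library (adjusted p = 0.173 and 0.160). Otx2 was also higher in E12.5 males than in females, at 15.0 and 16.3 RPM against 0 and 0.251 RPM.

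Of 16 genes of the PGC programme, 8 were higher and 5 lower in culture than in the embryo, with or without the E9.5 group. The lower count was 8 without the second d4c7 library. Dnd1 differed by -1.57 ± 0.08 (adjusted p = 4.68e-09), Lin28a, an RNA-binding factor of early germ cells, by -1.47 ± 0.21 (adjusted p = 4.89e-05) and Klf2, a pluripotency factor, by 1.57 ± 0.14 (adjusted p = 1.06e-06), by limma. Klf2 means were 149, 186 and 165 RPM in d4c3, d4c5 and d4c7 and 149 RPM at E9.5. They were 24.1 RPM in E12.5 males and 44.7 RPM in females, so culture lay near E9.5 and above E12.5. Between E9.5 and E12.5 males 9 of the 16 fell and 2 rose, beside 37.7% of all genes called and 17.6% lower. Klf2 (-2.61 ± 0.25, adjusted p = 4.22e-06) and Ifitm3 (-2.24 ± 0.21, adjusted p = 2.93e-06) were among the 9, and Tcl1 (1.39 ± 0.12, adjusted p = 1.21e-06 by limma) was among the 2. Leaving out any 1 library of the comparison gave 5 to 7 lower, with 5 without the first E9.5 or the second male library. In E12.5 females 4 of 16 were higher than in males and 1 was lower, beside 11.9% of all genes called and 6.68% higher. The lower one was Dppa3 (-0.72 ± 0.10, adjusted p = 0.000563 by limma), a call kept in every alternative. Every fit that left out 1 of these libraries called fewer of the list higher. Of 7 tested somatic mesoderm genes, which the founder factors are known to repress, 5 were lower in culture and 0 higher, with a median of -1.12. All but Lhx1 were below 5 RPM in every culture library. They were tested only through embryonic libraries, so the filter itself favours a lower call for them. The counts without the E9.5 group were also 5 and 0, with Hoxb2 lost and Lhx1 gained. At a minimum of 20 RPM only Lhx1 of this list was tested, and it was not called, so that setting says nothing about the others. With no filter 9 were lower. Cdx1 (-2.06 ± 0.23, adjusted p = 6.17e-06) and Evx1 (-1.68 ± 0.24, adjusted p = 6.24e-05 by limma) were among the 5 lower genes of the main fit, beside the somatic transcripts found at E9.5. Of 9 tested induction signal genes 2 were higher and 2 lower (3 lower without the E9.5 group, and 1 to 3 in each direction when a library was left out), including Bmp4, the inducing ligand (1.95 ± 0.26, adjusted p = 2.95e-05 by limma). Wnt3, among the lower genes, was tested only through E12.5 males (21.3 and 24.4 RPM), so the filter itself favours a lower call for it.

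**Figure D4:**
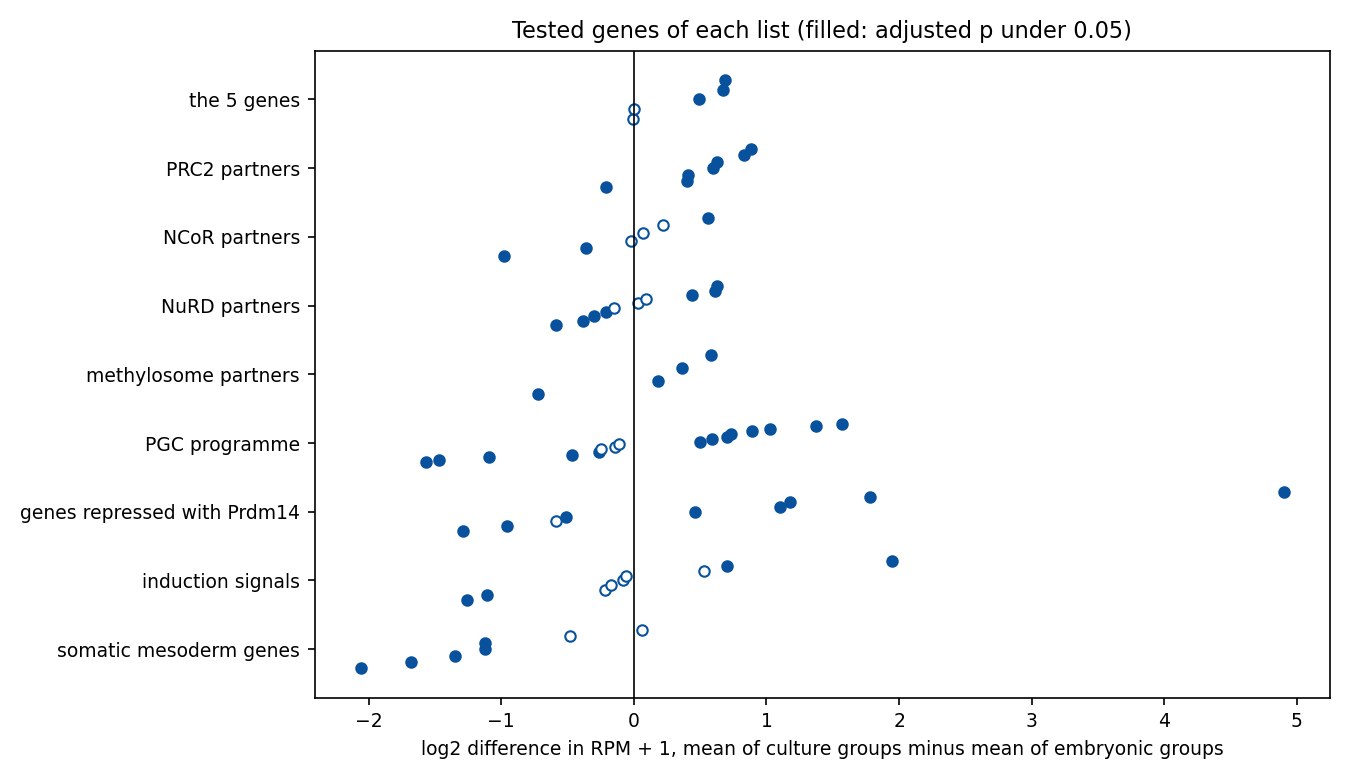
Difference in log2(RPM + 1) between the mean of the culture groups and the mean of the embryonic groups, with 1 point for each tested gene of a list, filled where the adjusted p was under 0.05. The PRC2 genes have 6 filled points above 0 and 1 below, and the point near 5 is Dnmt3l, which is listed at 0 in every embryonic library.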

How the data were processed

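The authors deposited 1 table of RPM values, read numbers scaled by library total, for 12 mouse libraries. Per the submitters' processing notes, cutadapt 1.3, TopHat 1.4.1 and Cufflinks 2.2.0 were used with mm10, with no step assigned to each, and counting details are not given in the sources used here. Gene rows summed to 1002394 to 1003005 RPM in each library. Between 81.8% and 87.4% of values up to 20 reads were whole multiples of the value of 1 read within 0.1 read, so whole reads were not recovered and count tests were not used. The 92 ERCC spike-in rows were not tested. They summed to 59.6 to 72.7 RPM in the culture libraries that had values, to 1372 and 628 RPM at E9.5 and to 12107 to 16494 RPM at E12.5. The E9.5 and E12.5 libraries thus differed in spike-in share at the same stated RNA input. The part of this in the differences between groups was not tested.

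Values were analysed as log2(RPM + 1), so a fold change understates that of low genes. A limma 3.58.1 model (R 4.3.3; lmFit, eBayes with trend) with 6 group means fitted all 12 libraries; 11 contrasts were each adjusted over 10856 genes by Benjamini-Hochberg and called at an adjusted p under 0.05. The model had 6 residual and 8.02 prior degrees of freedom. It was also run on simulated data with changes in d4c7 only, read for d4c7 against d4c3. The outcome is not given here, and no support is drawn from it for any contrast. Positions and promoter windows come from RefSeq GRCm38.p6.

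Members and lists were chosen with earlier results of these data known. The text names the 5 members, up to 3 called genes of largest change per list and contrast, the highest paralog of each family, and the 3 genes most like each member with a mean of at least 20 RPM.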

Additional observations from a re-analysis of the deposited data

Results flagged for a closer look

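Tfap2c at E12.5 lay at different distances from E9.5 in the 2 sexes. It was below E9.5 by 1.77 on the log2 scale in males and by 0.66 in females. The E9.5 libraries are not split by sex, and they cancel out of the difference between these 2 values. That difference is therefore the comparison of the sexes at E12.5 given above, 1.11 ± 0.16 (female minus male, log2, SE, adjusted p = 0.000460 by limma). The call was kept in every alternative run, with 2 of 2 female libraries above 2 of 2 male ones.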

How the results depend on the processing

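Of 55 results (5 genes in 11 contrasts), 17 were called, and 10 of these stayed called under every alternative run. Of the 38 not called, 12 were the same in every alternative. Over 700 recomputed values, 27 lost and 6 gained a call, and 41 moved in other ways. A change of sign was counted as reversed only where a call was involved, and 0 were. The number of members called changed under settings that kept all libraries as follows. From E9.5 to E12.5 males it was 2, and 1 with a variance prior without trend. To females it was 3, and 2 with no filter, with median log ratios set to 0 or without trend, where Sall4 was lost. Between the sexes it was 1, and 2 with a minimum of 20 RPM or with only the libraries compared. For d4c3 against E9.5 it was 2, and 1 with a pseudocount of 0.5, with no filter, with median log ratios set to 0 or without trend, and 3 with only the libraries compared, where Tfap2c was called lower. For d4c7 against E9.5 it was 1, and 2 with median log ratios set to 0 or with the replicate block, where Tfap2c joined Prdm1. For d4c7 against females it was 2, and 1 with only the libraries compared. The cause was not tested.

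Leaving out each library in turn gave 0 to 0 members between culture days, 1 to 1 from E9.5 to males (2 with all libraries), 1 to 2 to females (3), 1 to 1 between the sexes, 1 to 1 for d4c3 against E9.5 (2), 0 to 1 for d4c7 against E9.5, 3 to 3 against males, 1 to 2 against females, and 3 to 3 for culture against embryo.

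Same-numbered libraries of 2 groups deviated together with r of 0.116 to 0.455 between culture days and -0.0431 to 0.0286 elsewhere. With 2 numbers per contrast and no shared day or animal in the labels, the numbers were not used as a pairing. Counts over all genes moved more. From d4c3 to d4c7 they were 298, but 103 with no filter, 31 with only the libraries compared and 184 without trend. From d4c3 to d4c5 they were 9, but 3 with no filter, 17 with a minimum of 20 RPM, 20 with median log ratios set to 0, 2 with only the libraries compared and 22 with the replicate block. From d4c5 to d4c7 they were 2, and 0 to 3 under the other settings that kept all libraries. With only the libraries compared they were 2137 between the sexes (1297 otherwise) and 2799 for d4c7 against females (4221). Leaving out a library gave 31 to 780 from d4c3 to d4c7, 2 to 26 from d4c3 to d4c5, 0 to 30 from d4c5 to d4c7, 2329 to 2813 from E9.5 to males (4089 with all), 2264 to 2762 to females (4069), 524 to 549 between the sexes, 1115 to 1685 for d4c3 against E9.5 (2574), 1892 to 3981 for d4c7 against E9.5 (3463), 2522 to 4311 against males (3968), 2742 to 4397 against females (4221), and 5088 to 6234 for culture against embryo (5913). Rescaling moved the median of all genes by at most 0.06 (log2). Restricting the fit to the libraries compared was not run for culture against embryo, which uses all 12. With 2 libraries per group, differences between culture days smaller than the intervals given could not be detected.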
